A study of Homo sapiens with 18 samples.

Results

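The 44 genes described here belong to the type I interferon response and were chosen by gene symbol, with no measured value in the rule. The list itself was drawn up with earlier results of these data known. All 44 were found by symbol among the 27098 genes that the deposited transcript counts sum to, and all 44 passed the filter on low counts in both experiments. RNA was sequenced from 786-O cells, an established human line of clear-cell kidney cancer without working VHL protein, in 18 libraries (6 groups, 3 libraries each). The USP13 experiment compared hairpin sh50 and hairpin sh52 with a control hairpin, shCtrl. The ZHX2 experiment compared hairpin sh43 and hairpin sh45 with shCtrl libraries of its own. USP13 is a deubiquitinating enzyme and ZHX2 a zinc-finger and homeobox transcription factor, and the comparisons ask which transcripts depend on each. The labels name no interferon treatment in any group, and they do not say how the hairpins were delivered to these cells. The labels do not say when the RNA was taken after the hairpins were introduced, nor whether the inducible vector that they mention was used in these cells.

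Type I interferons are secreted proteins that bind the receptor chains IFNAR1 and IFNAR2 on the cell surface. The receptor activates the kinases JAK1 and TYK2, which phosphorylate STAT proteins, STAT2 among them, and these join IRF9 in the complex ISGF3, which enters the nucleus and binds a promoter motif called the interferon-stimulated response element (ISRE). Pairs of STAT proteins bind another motif, the gamma-activated site (GAS). The genes turned on in this way encode proteins that sense viral RNA, block viral entry and replication, mark proteins with ISG15 and keep the pathway itself in check. Carcinoma lines can express many of them at a low level without added interferon.

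Promoter stretches are shown first, because the ISRE is the motif that ISGF3 binds. RefSeq promoter sequences, from 250 bases before to 50 bases after a transcript start on GRCh38.p14, were available for 35 of the 44 genes. The ISRE core was searched as GAAANNGAAA and its reverse complement TTTCNNTTTC, and the GAS core as TTCNNNGAA, which reads the same on both strands. Below, capitals mark the ISRE core matches of genes on which the results turn.
RSAD2 (chr2:6877617-6877656, plus strand): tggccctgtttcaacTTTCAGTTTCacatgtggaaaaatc
IFI27 (chr14:94110616-94110660, plus strand): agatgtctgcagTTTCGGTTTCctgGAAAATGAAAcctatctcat
IFI6 (chr1:27672268-27672357, minus strand): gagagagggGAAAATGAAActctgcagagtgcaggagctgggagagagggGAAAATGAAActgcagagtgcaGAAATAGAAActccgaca
IFITM1 (chr11:313985-314044, plus strand): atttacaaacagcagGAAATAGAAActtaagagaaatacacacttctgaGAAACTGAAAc
IFIT1 (chr10:89392498-89392537, plus strand): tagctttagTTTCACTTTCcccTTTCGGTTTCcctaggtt
ISG15 (chr1:1013372-1013411, plus strand): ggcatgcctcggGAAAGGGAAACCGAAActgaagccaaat
The RSAD2 stretch holds a single ISRE core, at -145 from the RefSeq start, and the IFI6 stretch holds 3 separate cores, at -156, -115 and -93. In ISG15 the cores at -113 and -107 overlap each other, so that the capitals run together. In the first IFI27 promoter, cores at -108 and -95 flank a GAS core that overlaps both, and in IFITM1 the GAS core at -12 overlaps the ISRE core at -6.

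Not every gene had the ISRE letters in this window. IRF1 and SP110, the members that rose under sh43 in the ZHX2 experiment, had a GAS core and no ISRE core, and capitals mark the GAS core here.
IRF1 (chr5:132490874-132490913, minus strand): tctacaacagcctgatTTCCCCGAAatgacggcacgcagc
SP110 (chr2:230220000-230220039, minus strand): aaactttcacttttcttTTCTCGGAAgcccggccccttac
An ISRE core was present in 24 of the 35 genes (68.6%, exact 95% binomial interval 50.7% to 83.1%), whereas 4.38% of all 27305 genes in the table and 3.57% of all 35116 promoters held one. A GAS core was present in 12 of the 35 (34.3%), against 9.38% of all genes. The genes with a promoter but no ISRE core were CMPK2, HERC6, IFI35, IRF1, IRF9, OAS1, RIGI, SAMD9L, SP110, STAT2 and XAF1. No promoter was in the table for IFIT2, OAS2, OASL, IFITM2, MX2, DHX58, IRF7, USP18 and TRIM22. A match describes the letters of the window and is not a measured binding site.

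**Figure D1:**
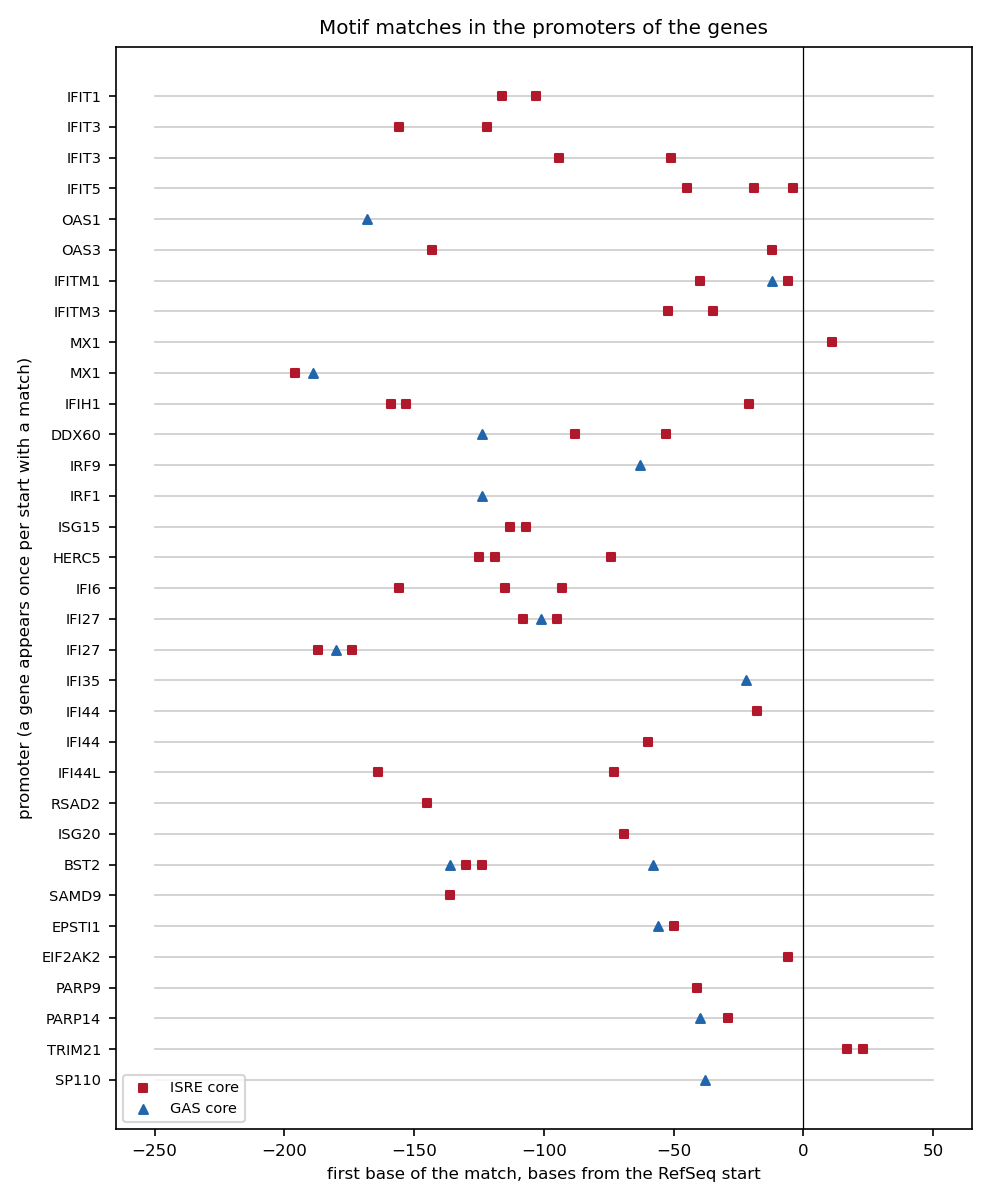
Positions of ISRE cores (red squares) and GAS cores (blue triangles) in bases from the RefSeq start, for the 33 promoters of 29 genes that hold a match. Most ISRE cores lie upstream of the start, while those of TRIM21 and of the first MX1 promoter lie after it.

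The knockdown itself was checked in every library. Levels are given in CPM, counts divided by the TMM-scaled library size of the experiment and multiplied by 1e6. Changes are log2 ratios from edgeR's quasi-likelihood F test, n = 3 libraries a group. That test gives no standard error (SE). The SE printed is the absolute log2 ratio divided by the square root of F, and the 95% intervals of changes are built on it. Both are approximate. A gene is said to have risen or fallen where the Benjamini-Hochberg adjusted p over all tested genes was under 0.05. USP13 mRNA stood at 16.8, 17.1 and 20.5 CPM in sh50 libraries and 14.8, 18.1 and 17.9 CPM in sh52 libraries, against 36.9, 34.7 and 31.8 CPM in shCtrl libraries. It fell by 1.89-fold under sh50 and by 2.04-fold under sh52, and no difference between the hairpins was shown in USP13 level (sh50 minus sh52 0.11 ± 0.11 SE, adjusted p = 0.612, 95% interval -0.13 to 0.34). The labels give the 21-base targets of both hairpins, printed here to identify them.
sh50: CGCCTGATGAACCAATTGATA
sh52: CCGGTGAAATCTGAACTCATT
ZHX2 mRNA stood at 38.6, 43.4 and 38.6 CPM in sh43 libraries and 90.8, 82.1 and 79.6 CPM in sh45 libraries, against 340.3, 344 and 344 CPM in shCtrl libraries. It fell by 8.51-fold under sh43 and by 4.07-fold under sh45, and was lower under sh43 than under sh45 (-1.06 ± 0.063 SE, adjusted p = 5.74e-14). The treatment text of the labels assigns hairpins 43 and 45 to USP13, against the titles and characteristics. USP13 mRNA in the ZHX2 experiment stood at 31.6, 38.8 and 35.3 CPM in sh43 libraries and 46.1, 49.8 and 43.5 CPM in sh45 libraries, against 40.3, 39.02 and 44.8 CPM in shCtrl libraries. USP13 mRNA changed by -0.23 (SE 0.082, adjusted p = 0.0156) under sh43 and 0.17 (SE 0.080, adjusted p = 0.0853) under sh45, so the large fall was in ZHX2 mRNA, as titled. The sh43 call of USP13 was lost without sh43 replicate 1 or shCtrl replicate 3 (adjusted p 0.126 and 0.0988). ZHX2 mRNA in the USP13 experiment stood at 136, 134 and 133 CPM in sh50 libraries and 135, 137 and 141 CPM in sh52 libraries, against 158, 149 and 157 CPM in shCtrl libraries. It was lower under sh50 (-0.20 ± 0.055 SE, adjusted p = 0.00856) and sh52 (-0.17 ± 0.055 SE, adjusted p = 0.0465), and the sh52 call was lost in each of the 9 fits that left out a library (adjusted p 0.0521 to 0.155).

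Total estimated counts ran from 11192561 to 16511290 a library. On the second principal component of the USP13 experiment, sh52 replicate 1 lay at -35.7, against -2.93 and -6.98 for the other sh52 libraries. Without it, 3 of the 44 genes fell and 2 rose under sh52, and 35 were lower in sh50 minus sh52. Of 8 renal carcinoma markers, PAX8, PAX2, VIM, KRT8, KRT18, MET and VCAM1 were detected and tested, and CA9 had at most 2 counts in any USP13-experiment library. The summed level of the renal list lay at 4234 to 4277 CPM in sh50 and 4602 to 4736 CPM in sh52 libraries. In USP13-experiment shCtrl libraries it lay at 5710 to 5742 CPM. Of its 7 tested genes, 5 (KRT8, KRT18, MET, VCAM1 and VIM) fell under both USP13 hairpins, as did 4.16% of all genes. In the ZHX2 experiment the renal sum lay at 4711 to 4830 CPM in sh43 and 5461 to 5551 CPM in sh45 libraries. The shCtrl libraries there lay at 5261 to 5339 CPM. Of the 8 renal markers tested there, 4 (KRT18, MET, PAX8 and VCAM1) rose under both hairpins, as did 14.1% of all genes. PAX2 fell under both, as did 15.9% of all genes, and KRT8 was called in opposite directions. Of 12 leukocyte markers, CD3E, CD3D and NKG7 had no count in any USP13-experiment library, and PTPRC, CD3E, CD3D and MS4A1 had none in any ZHX2-experiment library. The summed level of the 12 leukocyte markers, mostly CD68, lay at 19.8 to 23.8 CPM in sh50, 37.4 to 38.5 CPM in sh52 and 29.1 to 33.0 CPM in USP13-experiment shCtrl libraries. In the ZHX2 experiment this sum lay at 19.9 to 21.1 CPM in sh43, 59.2 to 63.0 CPM in sh45 and 38.0 to 45.8 CPM in shCtrl libraries. The 6 endothelial markers summed to 0.623 to 1.55 CPM over the USP13-experiment libraries, to 2.62 to 3.97 CPM in sh43 and 0.786 to 1.58 CPM in sh45, and to 0.435 to 1.03 CPM in ZHX2-experiment shCtrl libraries. VWF and KDR had no count in any USP13-experiment library and CDH5 none in any ZHX2-experiment library. The part of these markers in the results was not tested. The labels do not say whether replicates were separate cultures, so the p-values measure the spread between these libraries, which may be technical.

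Under sh50 the interferon genes were lower nearly throughout. Of the 44, 35 fell and 0 rose, whereas over all 13717 genes tested 11.3% fell and 10.2% rose. The median log2 change was -0.431 against 0.003 for all genes. For the count of 0 that rose, edgeR gave 0 at an unadjusted p under 0.05 and DESeq2 gave 0. Under sh52 the picture was different, with 4 genes falling and 1 rising at a median of -0.038, while 6.57% of all genes fell and 5.45% rose. Set directly against sh52, a contrast that takes no control level, sh50 had 35 of the 44 lower and 0 higher, at a median of -0.441, whereas 5.48% of all genes were lower and 4.73% higher. There too the count of 0 stood at an unadjusted p under 0.05 and with DESeq2. USP13 mRNA itself was lowered under both hairpins, as given above.

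Each sh50 library showed the fall. The median over the 44 genes of the log2 ratio to the control mean was -0.426, -0.476 and -0.423 in the sh50 libraries and -0.049, -0.036 and -0.029 in the sh52 libraries, against -0.023, 0.061 and -0.038 in the shCtrl libraries. Summed over the 44 genes, the level was 2863, 2778 and 2766 CPM in the sh50 libraries and 3721, 3790.1 and 3809 CPM in the sh52 libraries, against 3731, 3902 and 3804 CPM in the controls. The sh50 libraries lay below all 6 others on both measures, and the sh52 libraries overlapped the controls. In bulk RNA, fewer expressing cells and less RNA per cell cannot be told apart. The share of counts from mitochondrial rRNA also differed between the groups, at 4.26% ± 0.16 in sh50 and 3.70% ± 0.14 in sh52, against 2.62% ± 0.078 in shCtrl (SD, n = 3 each), and its part in the result was not tested.

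**Figure D2:**
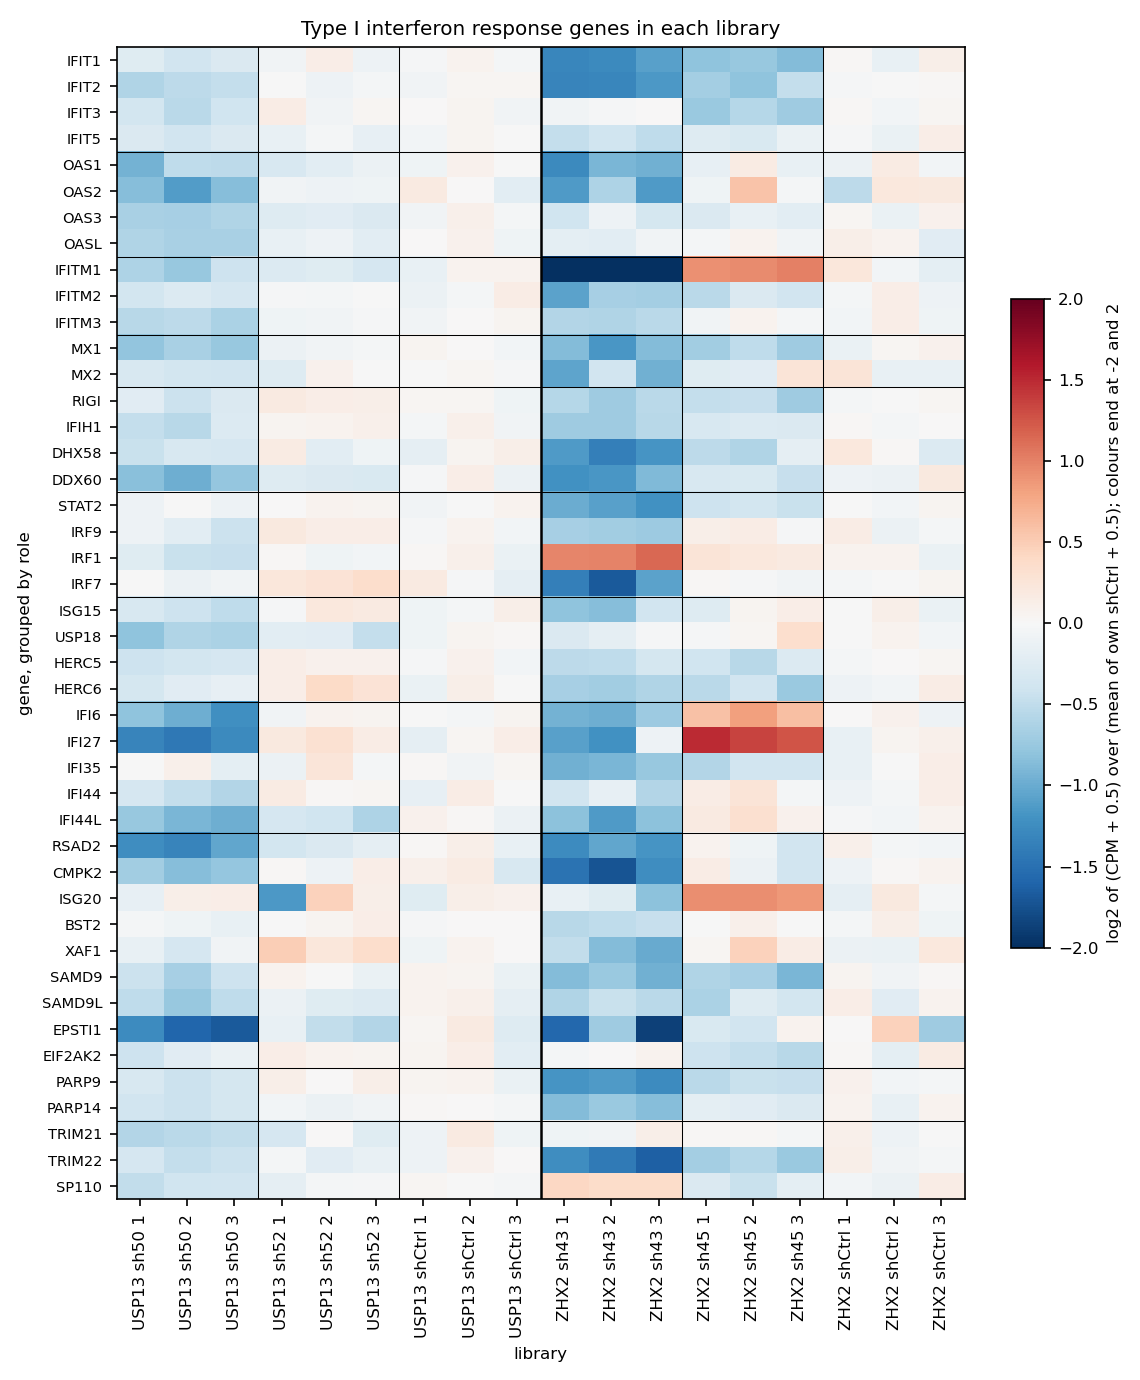
Log2 ratio of each of the 44 genes in each of the 18 libraries to the mean of the experiment's own shCtrl libraries, with 0.5 CPM added to both, rows grouped by role. The sh50 columns are blue for nearly every gene, the sh52 columns are pale, the sh43 columns are the darkest, and IFITM1, IFI6, IFI27 and ISG20 are red under sh45.

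The genes with the largest log2 falls under sh50 were EPSTI1, IFI27, RSAD2 and IFI6. RSAD2 encodes viperin, which makes a chain-terminating nucleotide that stops viral RNA synthesis. It stood at 38.6, 36.7 and 44.9 CPM in sh50 libraries and 71.3, 75.2 and 81.5 CPM in sh52 libraries, against 94.1, 100.3 and 83.2 CPM in shCtrl libraries. The 3 groups did not overlap, with sh50 lowest and shCtrl highest. RSAD2 fell to 0.434 of control under sh50 (log2 -1.21 ± 0.084 SE, adjusted p = 1.62e-10) and to 0.821 under sh52 (-0.28 ± 0.080 SE, adjusted p = 0.0187), and sh50 was lower than sh52 (sh50 minus sh52 -0.92 ± 0.084 SE, adjusted p = 4.99e-08). The sh52 call was lost without sh52 replicate 1, shCtrl replicate 1 or shCtrl replicate 2, at adjusted p of 0.0574, 0.0723 and 0.152. CMPK2, a nucleotide kinase whose gene overlaps RSAD2, changed by -0.82 (SE 0.15, adjusted p = 0.000174) under sh50 and 0.015 (SE 0.14, adjusted p = 0.96) under sh52, and without strand information reads in the shared stretch cannot be told apart.

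EPSTI1, an interferon-inducible gene, showed the largest log2 fall of the 44 under sh50 from a low level. It stood at 3.398, 2.58 and 2.403 CPM in sh50 libraries and 7.85, 6.06 and 5.67 CPM in sh52 libraries, against 9.04, 10.02 and 7.25 CPM in shCtrl libraries. Every sh50 library lay below every other library, while sh52 and shCtrl overlapped. The change was -1.68 (SE 0.21, adjusted p = 1.48e-06) under sh50 and -0.43 (SE 0.19, adjusted p = 0.14) under sh52, with sh50 minus sh52 at -1.25 (SE 0.21, adjusted p = 0.000334).

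IFI27 and IFI6, small interferon-inducible membrane proteins, fell under sh50 and not under sh52. IFI27 stood at 12.4, 11.5 and 12.8 CPM in sh50 libraries and 36.5, 39.3 and 35.2 CPM in sh52 libraries, against 27.98, 32.5 and 34.8 CPM in shCtrl libraries. Its sh50 libraries were far below all others, and its sh52 libraries lay just above the controls without passing the test. The change was -1.37 (SE 0.11, adjusted p = 8.83e-10) under sh50 and 0.22 (SE 0.095, adjusted p = 0.138) under sh52. Between the hairpins it was -1.59 (SE 0.10, adjusted p = 1.64e-10), the largest such difference among the 44 in this experiment. IFI6 stood at 93.98, 83.5 and 69.9 CPM in sh50 libraries and 157, 173 and 171 CPM in sh52 libraries, against 163, 160.1 and 171 CPM in shCtrl libraries. Its sh50 libraries were again separate and its sh52 libraries overlapped the controls. IFI6 changed by -1.002 (SE 0.076, adjusted p = 7.16e-10) under sh50, by 0.021 (SE 0.073, adjusted p = 0.891) under sh52 and by -1.02 (SE 0.076, adjusted p = 1.21e-09) between them. Of the other IFI genes, IFI44L stood at 26.02, 23.3 and 22.3 CPM in sh50 libraries and 35.4, 33.8 and 28.9 CPM in sh52 libraries, against 47.2, 45.2 and 41.1 CPM in shCtrl libraries. IFI44L, whose function is not well defined, was ordered sh50, sh52, shCtrl with no overlap, and changed by -0.91 (SE 0.096, adjusted p = 1.32e-07) under sh50 and -0.45 (SE 0.093, adjusted p = 0.00192) under sh52. This was the single sh52 call among the 44 that passed in every alternative run. Its neighbour IFI44 changed by -0.47 (SE 0.080, adjusted p = 8.76e-05) under sh50 and 0.073 (SE 0.078, adjusted p = 0.608) under sh52, and IFI35, a partner of the protein NMI, by -0.031 (SE 0.093, adjusted p = 0.86) and 0.037 (SE 0.093, adjusted p = 0.843).

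The OAS genes encode enzymes that make 2'-5' oligoadenylate on double-stranded RNA and so activate RNase L, except OASL, which lacks that activity. All 4 fell under sh50. OAS2 stood at 10.2, 8.44 and 10.3 CPM in sh50 libraries and 18.03, 17.6 and 17.7 CPM in sh52 libraries, against 21.5, 18.9 and 16.2 CPM in shCtrl libraries. Its sh50 libraries lay well below the rest, and sh52 and shCtrl overlapped (-0.97 ± 0.13 SE, adjusted p = 3.66e-06 under sh50, -0.088 ± 0.12 SE, adjusted p = 0.7 under sh52). OAS3 stood at 53.8, 53.6 and 56.04 CPM in sh50 libraries and 70.98, 72.3 and 69.2 CPM in sh52 libraries, against 81.2, 90.8 and 82.8 CPM in shCtrl libraries. Here the 3 groups were separate, with changes of -0.64 (SE 0.067, adjusted p = 1.21e-07) under sh50 and -0.26 (SE 0.066, adjusted p = 0.00926) under sh52. The sh52 call did not hold without sh52 replicate 3 (adjusted p = 0.0505) or shCtrl replicate 2 (adjusted p = 0.089). OAS1 and OASL changed by -0.64 (SE 0.11) and -0.65 (SE 0.083) under sh50, and by -0.22 (SE 0.11, adjusted p = 0.205) and -0.16 (SE 0.081, adjusted p = 0.23) under sh52.

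The RNA helicase group holds the sensors RIGI and IFIH1 (MDA5), their relative DHX58 (LGP2) and DDX60. All 4 fell under sh50. DDX60 stood at 52.7, 47.8 and 55.2 CPM in sh50 libraries and 78.97, 77.7 and 76.4 CPM in sh52 libraries, against 93.7, 104 and 86.97 CPM in shCtrl libraries. The groups were separate in the order sh50, sh52, shCtrl, with changes of -0.87 (SE 0.074, adjusted p = 3.42e-09) and -0.29 (SE 0.072, adjusted p = 0.00826). Without shCtrl replicate 2 the sh52 call was lost (-0.218, adjusted p = 0.0987). RIGI, IFIH1 and DHX58 changed by -0.32, -0.43 and -0.38 under sh50 and by 0.14, 0.077 and -0.038 under sh52, where none of them passed. The RIGI call under sh50 did not hold without sh50 replicate 2 (adjusted p = 0.0647). That of DHX58 was lost in 5 of 9 fits that left out a library (sh50 replicates 1, 2 and 3 and shCtrl replicates 2 and 3, adjusted p 0.135, 0.0882, 0.0776, 0.139 and 0.144).

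XAF1, an interferon-inducible gene that promotes cell death, was the 1 gene of the 44 that rose under sh52. It stood at 32.4, 28.4 and 34.3 CPM in sh50 libraries and 51.2, 42.1 and 46.2 CPM in sh52 libraries, against 34.1, 38.03 and 36.2 CPM in shCtrl libraries. The sh52 libraries lay above all others, and sh50 overlapped the controls. XAF1 changed by -0.19 (SE 0.093, adjusted p = 0.157) under sh50, by 0.36 (SE 0.091, adjusted p = 0.00863) under sh52 and by -0.55 (SE 0.092, adjusted p = 0.000206) between the hairpins. The rise under sh52 did not pass without shCtrl replicate 1 (0.326, adjusted p = 0.055).

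**Figure D3:**
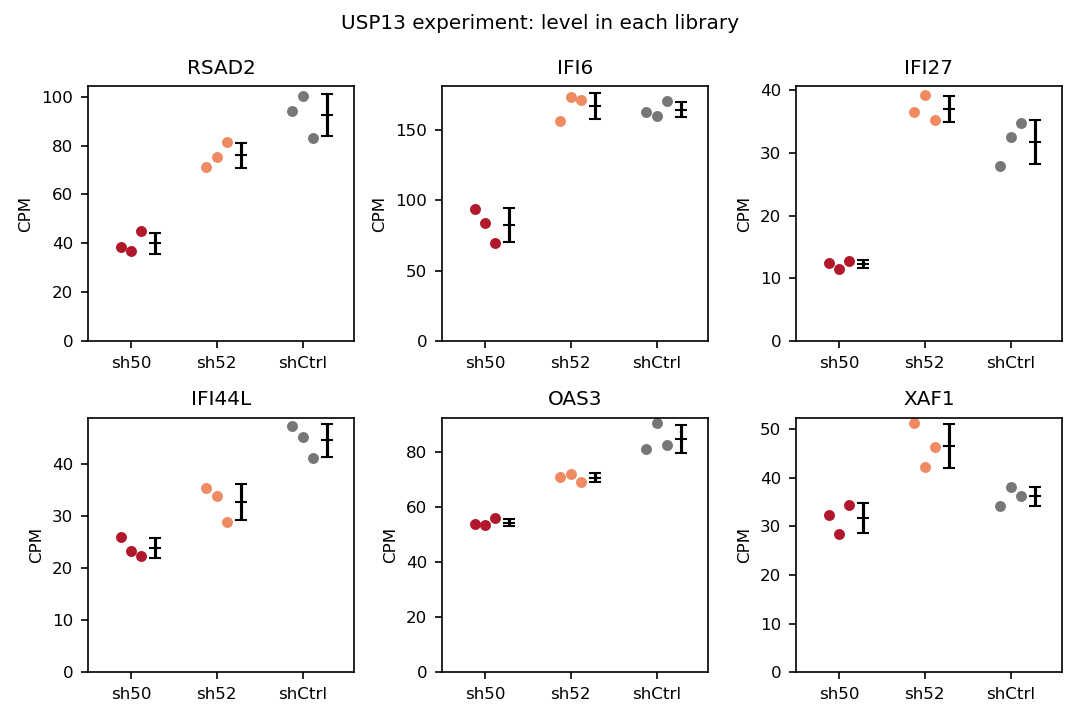
Level in CPM of RSAD2, IFI6, IFI27, IFI44L, OAS3 and XAF1 in each library of the USP13 experiment (points), with mean and SD at the right of each group (n = 3). The sh50 points lie below all others except in XAF1, where they overlap the controls, and the sh52 points lie near the controls in IFI6 and between sh50 and control in RSAD2, IFI44L and OAS3.

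The IFIT genes, a family of interferon-inducible antiviral genes, all fell under sh50, with log2 changes of -0.30 for IFIT1, -0.54 for IFIT2, -0.44 for IFIT3 and -0.32 for IFIT5. Under sh52 none of the 4 passed, with log2 changes between -0.123 and 0.040. The IFITM genes, which block fusion of viruses with cell membranes, all fell under sh50, with log2 changes of -0.61 for IFITM1, -0.33 for IFITM2 and -0.57 for IFITM3. Their sequences are closely similar, so their split of reads is an estimate. IFITM3 had the highest TPM (a level per transcript length) of the 44 genes in all 3 groups, at 1900.0 ± 36.8 TPM in sh50, 2746 ± 23.0 TPM in sh52 and 2899 ± 55.5 TPM in shCtrl libraries (SD, n = 3). MX1, a GTPase that traps viral nucleocapsids, fell under sh50 (-0.74 ± 0.089 SE, adjusted p = 9.37e-07), and its relative MX2, at 2.36 TPM in shCtrl the lowest of the 44, changed by -0.41 (SE 0.23, adjusted p = 0.224).

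The ISG15 system marks proteins with the ubiquitin-like ISG15. ISG15 itself averaged 236 ± 14.7 CPM in sh50 libraries and 344 ± 28.6 CPM in sh52 libraries, against 315 ± 23.2 CPM in the controls (SD, n = 3 each). It fell under sh50 (-0.41 ± 0.064 SE, adjusted p = 3.3e-05) and had a change of 0.13 (SE 0.064, adjusted p = 0.213) under sh52. USP18, which removes ISG15 and damps receptor signalling, changed by -0.70 (SE 0.12) and HERC5, the ligase that attaches ISG15, by -0.37 (SE 0.076), and both fell. USP18 has a near-identical copy elsewhere in the genome. HERC6, a relative of HERC5, changed by -0.25 (SE 0.12, adjusted p = 0.13) under sh50 and 0.27 (SE 0.11, adjusted p = 0.13) under sh52, and sh50 was lower than sh52 (sh50 minus sh52 -0.52 ± 0.12 SE, adjusted p = 0.00395).

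Of the transcription factors, 1 of 4 fell under sh50. IRF1, a factor that is itself induced by interferons, changed by -0.40 (SE 0.090, adjusted p = 0.00189). STAT2 changed by -0.069 (SE 0.057, adjusted p = 0.437) and IRF7, which drives interferon genes, by -0.064 (SE 0.12, adjusted p = 0.749). IRF9, the DNA-binding part of ISGF3, had every sh50 library below every shCtrl library and missed the threshold (-0.25 ± 0.092 SE, adjusted p = 0.0514). The subunits of ISGF3 among the 44 thus showed smaller log2 changes than most of the genes described above. In sh50 minus sh52, IRF1, IRF7 and IRF9 were lower (-0.36, -0.35 and -0.41) and STAT2 did not pass (-0.11 ± 0.057 SE, adjusted p = 0.249). The IRF1 difference did not pass without sh50 replicate 2 (adjusted p = 0.0711). That of IRF7 did not pass without sh50 replicate 1, 2 or 3, sh52 replicate 2 or 3, or shCtrl replicate 2 (adjusted p 0.0895, 0.168, 0.0972, 0.0748, 0.135 and 0.0623).

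PARP9 and PARP14, ADP-ribosyltransferase family members, fell under sh50 with log2 changes of -0.38 and -0.39, and the TRIM and nuclear body genes TRIM21, TRIM22 and SP110 with -0.56, -0.42 and -0.43. SAMD9 and SAMD9L, restriction factors of poxviruses, fell with -0.50 and -0.59. EIF2AK2, the kinase PKR that halts translation on double-stranded RNA, passed narrowly (-0.26 ± 0.087 SE, adjusted p = 0.0372). It was the 1 called gene whose sh50 and shCtrl libraries overlapped, and the call was lost without sh50 replicate 1 or 2 or shCtrl replicate 1 or 2 (adjusted p 0.22, 0.0891, 0.14 and 0.233). BST2, the tether of budding virus particles, and ISG20, an RNA exonuclease, did not pass under sh50 (-0.090 ± 0.050 SE, adjusted p = 0.217, and 0.047 ± 0.28 SE, adjusted p = 0.928). ISG20 stood at 4.38, 5.44 and 5.53 CPM in sh50 libraries and 1.98, 7.03 and 5.46 CPM in sh52 libraries, against 4.13, 5.45 and 5.34 CPM in shCtrl libraries, and all 3 groups overlapped.

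Under sh43 most of the interferon genes fell, and under sh45 most did not pass as lower. Under sh43, 36 of the 44 fell and 2 rose at a median log2 change of -0.825, where 35.2% of all 13605 genes tested fell and 33.5% rose at a median of -0.023. Under sh45, 21 fell and 5 rose at a median of -0.212, where 27.3% of all genes fell and 25.3% rose. The other 18 did not pass under sh45. In sh43 minus sh45, 31 were lower and 4 higher at a median of -0.574, where 34.2% of all genes were lower and 32.7% higher. ZHX2 mRNA was also lower under sh43 than under sh45, as given above.

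By library, the median log2 ratio of the 44 genes to the control mean was -0.839, -0.710 and -0.740 in sh43 and -0.256, -0.222 and -0.185 in sh45, against -0.008, -0.037 and 0.031 in shCtrl. The summed level was 1264, 1301 and 1329 CPM in sh43 and 1768, 1894 and 1771 CPM in sh45, against 1982, 1992 and 1982 CPM in shCtrl. The 3 groups were separate on both measures, in the order sh43, sh45, shCtrl. Mitochondrial rRNA took 1.54% ± 0.031 of counts in sh43 and 3.09% ± 0.26 in sh45, against 1.25% ± 0.073 in shCtrl (SD, n = 3 each), and its part in the result was not tested.

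**Figure D4:**
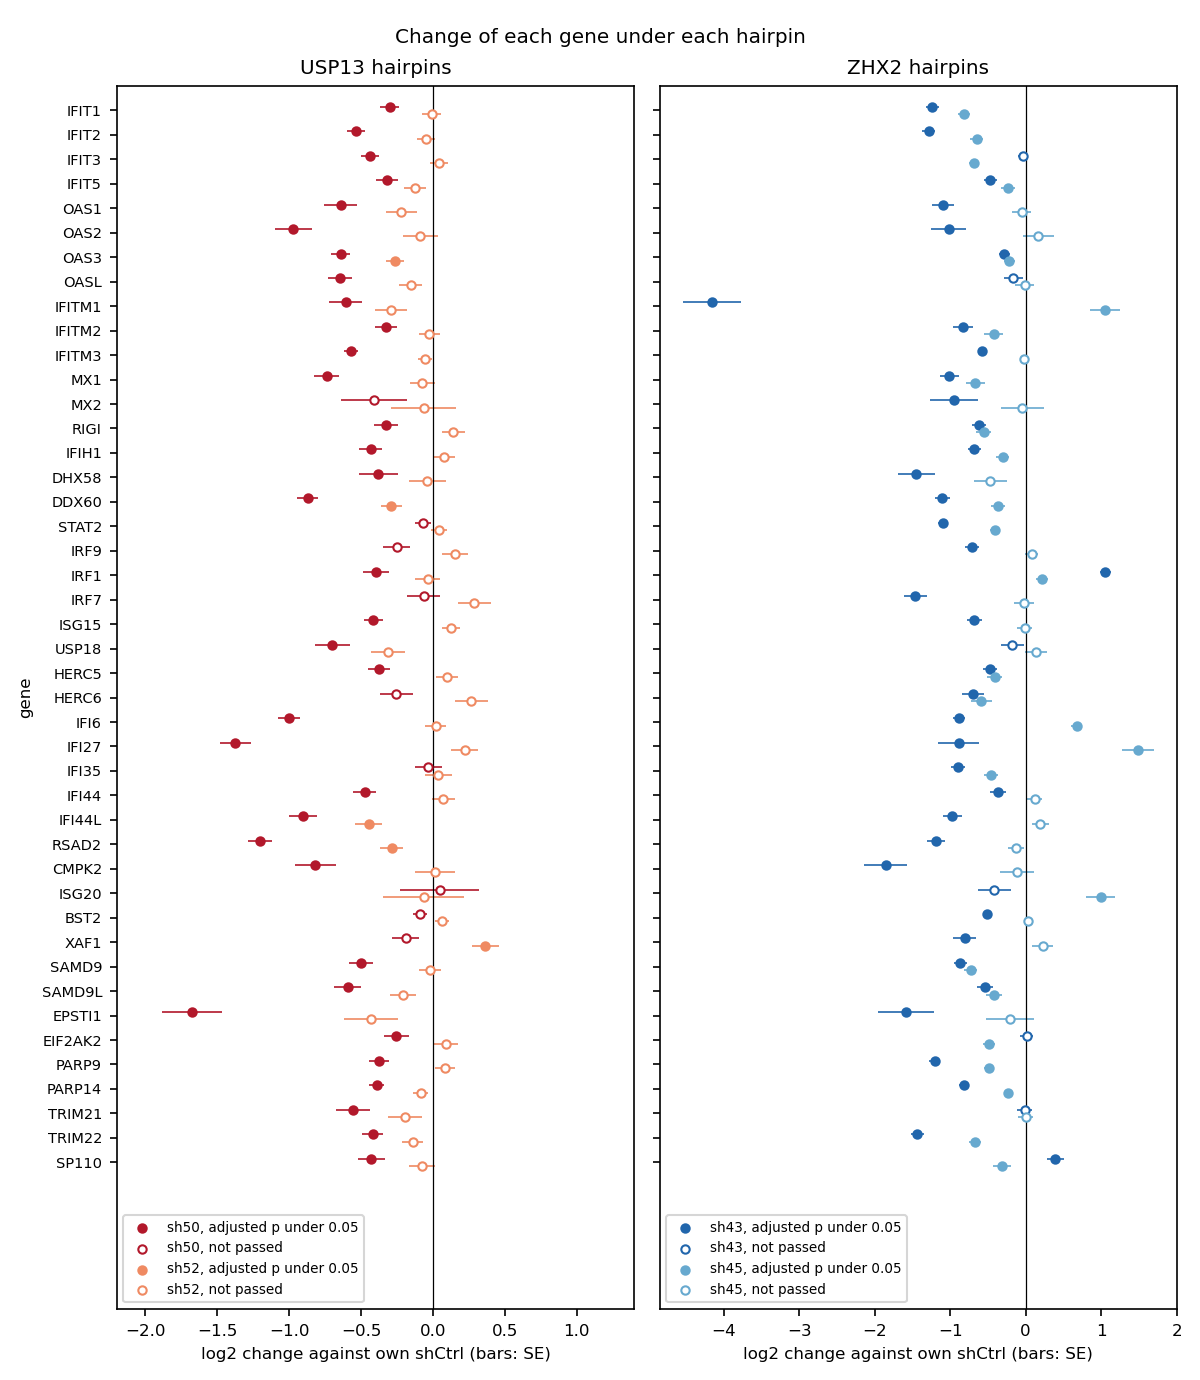
Log2 change of each gene against the experiment's own shCtrl libraries, with SE bars. Filled circles passed at an adjusted p under 0.05 and open circles did not. Left, sh50 (dark red) lies below 0 for 43 of the 44 genes and sh52 (orange) scatters around 0. Right, sh43 (dark blue) lies below 0 for 41 genes and sh45 (light blue) for 31. IFITM1, IFI6, IFI27 and SP110 passed on opposite sides of 0. Other genes, such as IFI44 and IFI44L, lie on opposite sides without passing under both hairpins.

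Among the IFIT genes, IFIT1 stood at 21.9, 22.4 and 25.5 CPM in sh43 libraries and 31.1, 31.99 and 29.7 CPM in sh45 libraries, against 55.4, 49.5 and 59.02 CPM in shCtrl libraries. IFIT2 stood at 17.3, 17.4 and 19.6 CPM in sh43 libraries and 27.3, 24.98 and 31.6 CPM in sh45 libraries, against 43.3, 43.8 and 44.8 CPM in shCtrl libraries. Both were ordered sh43, sh45, shCtrl with no overlap. IFIT1 changed by -1.24 (SE 0.083, adjusted p = 5.1e-13) under sh43 and -0.82 (SE 0.080, adjusted p = 2.06e-09) under sh45, and IFIT2 by -1.28 (SE 0.089) and -0.65 (SE 0.084). IFIT5 stood at 21.2, 22.4 and 20.6 CPM in sh43 libraries and 24.6, 23.8 and 26.97 CPM in sh45 libraries, against 29.2, 26.98 and 32.5 CPM in shCtrl libraries. Its falls were smaller (-0.47 ± 0.090 SE, adjusted p = 5.8e-05, and -0.23 ± 0.089 SE, adjusted p = 0.028), and the sh45 call was lost without sh45 replicate 1 or 2 or shCtrl replicate 3 (adjusted p 0.0804, 0.106 and 0.176). IFIT3 stood at 54.9, 57.1 and 57.9 CPM in sh43 libraries and 34.4, 38.9 and 34.96 CPM in sh45 libraries, against 58.6, 55.3 and 59.4 CPM in shCtrl libraries. IFIT3 did not pass under sh43 and fell under sh45, with changes of -0.030 (SE 0.066, adjusted p = 0.703) and -0.68 (SE 0.069, adjusted p = 4.04e-09). It was higher under sh43 than under sh45 (sh43 minus sh45 0.65 ± 0.069 SE, adjusted p = 4.41e-09). In the annotation all 4 IFIT genes overlap the span of LIPA, and EIF2AK2 overlaps GPATCH11, and without strand information reads in shared stretches cannot be told apart.

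Of the IFITM genes, IFITM1 was called in opposite directions by the hairpins. IFITM1 stood at 0.216, 0.0639 and 0.318 CPM in sh43 libraries and 7.13, 7.25 and 7.66 CPM in sh45 libraries, against 4.21, 3.41 and 3.02 CPM in shCtrl libraries. The sh43 values rest on 3, 1 and 4 counts, against 55, 47 and 44 counts in shCtrl, and the 3 groups were separate with sh45 highest. IFITM1 changed by -4.15 (SE 0.39, adjusted p = 3.89e-10) under sh43, with a 95% interval of -4.95 to -3.36, and by 1.05 (SE 0.20, adjusted p = 8.33e-05) under sh45. The difference between the hairpins was -5.21 (SE 0.34, adjusted p = 5.05e-13), the largest among the 44. IFITM2 stood at 7.14, 9.64 and 9.54 CPM in sh43 libraries and 10.6, 12.6 and 11.8 CPM in sh45 libraries, against 15.2, 17.1 and 14.6 CPM in shCtrl libraries. Both groups lay below the controls (-0.83 ± 0.13 SE, adjusted p = 3.6e-06 under sh43 and -0.42 ± 0.13 SE, adjusted p = 0.00646 under sh45). IFITM3, far more abundant, averaged 120.5 ± 3.12 CPM in sh43 and 177 ± 9.43 CPM in sh45, against 179 ± 14.5 CPM in shCtrl (SD, n = 3 each), and fell under sh43 (-0.57 ± 0.058 SE, adjusted p = 1.74e-09) without passing under sh45 (-0.016 ± 0.057 SE, adjusted p = 0.832).

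IFI27 and IFI6 also moved in opposite directions. IFI27 stood at 1.44, 1.28 and 3.34 CPM in sh43 libraries and 11.1, 10.1 and 9.43 CPM in sh45 libraries, against 3.21, 3.77 and 3.91 CPM in shCtrl libraries. Its sh45 libraries were all well above the controls, while sh43 replicate 3 lay within the control range and the other sh43 libraries below it. IFI27 changed by -0.89 (SE 0.27, adjusted p = 0.0048) under sh43 and 1.49 (SE 0.21, adjusted p = 1.23e-06) under sh45, with sh43 minus sh45 at -2.37 (SE 0.23, adjusted p = 1.11e-09). Without sh43 replicate 2 the sh43 call was lost (-0.625, adjusted p = 0.0525). IFI6 stood at 45.7, 44.5 and 53.2 CPM in sh43 libraries and 133, 156 and 134 CPM in sh45 libraries, against 88.6, 93.5 and 82.01 CPM in shCtrl libraries. Here the groups were separate, sh43 lowest and sh45 highest (-0.88 ± 0.076 SE, adjusted p = 8.63e-11, and 0.68 ± 0.071 SE, adjusted p = 9.4e-09, and -1.56 ± 0.075 SE, adjusted p = 9.36e-16 between the hairpins). IFI35 stood at 17.9, 18.5 and 20.6 CPM in sh43 libraries and 23.3, 26.9 and 26.8 CPM in sh45 libraries, against 31.7, 35.03 and 38.8 CPM in shCtrl libraries. It fell under both (-0.90 ± 0.094 SE, adjusted p = 3.85e-09, and -0.46 ± 0.091 SE, adjusted p = 0.000123), with sh43 the lower. IFI44 and IFI44L fell under sh43 (-0.37 ± 0.10 SE and -0.97 ± 0.12 SE) and did not pass under sh45 (0.12 ± 0.099 SE, adjusted p = 0.313, and 0.20 ± 0.11 SE, adjusted p = 0.144).

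**Figure D5:**
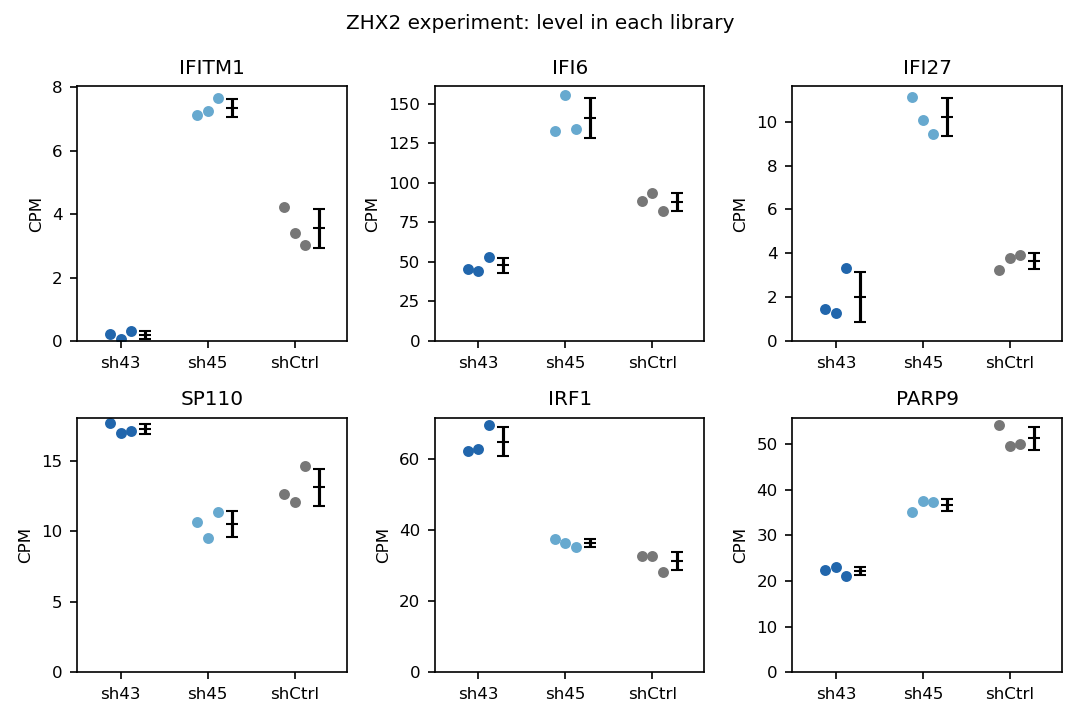
Level in CPM of IFITM1, IFI6, IFI27, SP110, IRF1 and PARP9 in each library of the ZHX2 experiment (points), with mean and SD at the right of each group (n = 3). IFITM1, IFI6 and IFI27 are low in sh43 and above control in sh45, SP110 is above control in sh43 and below it in sh45, IRF1 is highest in sh43, and PARP9 is ordered sh43, sh45, shCtrl.

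Among the transcription factors, IRF1 rose under both hairpins and STAT2 fell under both. IRF1 stood at 62.4, 62.98 and 69.7 CPM in sh43 libraries and 37.5, 36.4 and 35.4 CPM in sh45 libraries, against 32.8, 32.7 and 28.4 CPM in shCtrl libraries. The sh43 libraries were highest, and the sh45 libraries lay just above the controls. IRF1 rose by 2.08-fold under sh43 (1.05 ± 0.074 SE, adjusted p = 1.32e-12) and by 1.16-fold under sh45 (0.22 ± 0.077 SE, adjusted p = 0.0185). The sh45 call did not hold without sh45 replicate 1 (adjusted p = 0.0632) or shCtrl replicate 3 (adjusted p = 0.127). STAT2 stood at 59.2, 55.4 and 51.1 CPM in sh43 libraries and 89.2, 91.4 and 87.4 CPM in sh45 libraries, against 118, 114 and 124 CPM in shCtrl libraries. It was separate in the order sh43, sh45, shCtrl, with changes of -1.101 (SE 0.063, adjusted p = 2e-14) and -0.41 (SE 0.061, adjusted p = 2.75e-06). IRF7 stood at 4.33, 3.38 and 5.41 CPM in sh43 libraries and 12.2, 11.7 and 11.3 CPM in sh45 libraries, against 11.6, 11.8 and 12.3 CPM in shCtrl libraries. IRF7 was low under sh43 alone, with changes of -1.46 (SE 0.15, adjusted p = 4.05e-09) and -0.021 (SE 0.13, adjusted p = 0.911) and a difference of -1.44 (SE 0.15, adjusted p = 5.83e-09). IRF9 fell likewise under sh43 (-0.71 ± 0.092 SE, adjusted p = 1.44e-07) and changed by 0.081 (SE 0.086, adjusted p = 0.45) under sh45.

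All 4 helicase genes fell under sh43 and 3 of them under sh45. RIGI stood at 17.4, 15.7 and 17.7 CPM in sh43 libraries and 18.6, 18.7 and 15.7 CPM in sh45 libraries, against 25.3, 25.8 and 26.6 CPM in shCtrl libraries. IFIH1 stood at 15.9, 15.97 and 17.8 CPM in sh43 libraries and 21.1, 21.8 and 21.5 CPM in sh45 libraries, against 26.9, 25.8 and 26.6 CPM in shCtrl libraries. In RIGI the hairpins overlapped each other and lay below control (-0.62 ± 0.096 SE and -0.56 ± 0.095 SE), and in IFIH1 they were separate (-0.68 ± 0.090 SE and -0.30 ± 0.087 SE). DHX58 stood at 1.802, 1.47 and 1.75 CPM in sh43 libraries and 3.01, 2.84 and 3.99 CPM in sh45 libraries, against 5.36, 4.64 and 3.71 CPM in shCtrl libraries. It fell under sh43 (-1.45 ± 0.25 SE, adjusted p = 1.32e-05) and missed the threshold under sh45 (-0.47 ± 0.22 SE, adjusted p = 0.0832). DDX60 stood at 17.7, 18.3 and 22.5 CPM in sh43 libraries and 33.4, 33.6 and 30.1 CPM in sh45 libraries, against 38.96, 38.6 and 47.6 CPM in shCtrl libraries. DDX60 was ordered sh43, sh45, shCtrl with no overlap (-1.105 ± 0.098 SE and -0.37 ± 0.092 SE).

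OAS3 stood at 57.4, 70.3 and 59.1 CPM in sh43 libraries and 62.2, 68.3 and 65.1 CPM in sh45 libraries, against 77.7, 68.9 and 80.8 CPM in shCtrl libraries. Replicate 2 of sh43 overlapped the controls, and both changes were small (-0.28 ± 0.075 SE, adjusted p = 0.00163, and -0.22 ± 0.074 SE, adjusted p = 0.0157). The sh45 call was lost without sh45 replicate 1, shCtrl replicate 1 or shCtrl replicate 3 (adjusted p 0.0807, 0.0524 and 0.091). OAS1 and OAS2 fell under sh43 with log2 changes of -1.09 and -1.02 and did not pass under sh45, and OASL passed under neither hairpin (-0.16 ± 0.12 SE and -0.013 ± 0.12 SE). MX1 stood at 8.15, 6.58 and 8.19 CPM in sh43 libraries and 9.22, 10.6 and 9.1 CPM in sh45 libraries, against 13.9, 15.7 and 16.3 CPM in shCtrl libraries. Both hairpins were below control (-1.01 ± 0.13 SE, adjusted p = 1.6e-07, and -0.67 ± 0.13 SE, adjusted p = 7.4e-05). MX2 passed under sh43 (-0.95 ± 0.32 SE, adjusted p = 0.0106), except without sh43 replicate 1 or shCtrl replicate 1 (adjusted p 0.0582 and 0.0642).

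In the ISG15 system the ligase HERC5 and its relative HERC6 fell under both hairpins. HERC5 stood at 18.02, 18.1 and 20.4 CPM in sh43 libraries and 19.6, 17.5 and 21.4 CPM in sh45 libraries, against 25.2, 26.04 and 26.8 CPM in shCtrl libraries. HERC6 stood at 6.78, 6.58 and 7.07 CPM in sh43 libraries and 7.39, 8.35 and 6.35 CPM in sh45 libraries, against 10.3, 10.5 and 12.2 CPM in shCtrl libraries. For neither gene did the hairpins differ past the threshold (-0.056 ± 0.097 SE, adjusted p = 0.626, 95% interval -0.26 to 0.14, and -0.11 ± 0.15 SE, adjusted p = 0.538, 95% interval -0.42 to 0.20). ISG15 averaged 39.3 ± 7.45 CPM in sh43 and 62.1 ± 8.51 CPM in sh45, against 62.6 ± 5.44 CPM in shCtrl (SD, n = 3 each), and fell under sh43 (-0.68 ± 0.10 SE, adjusted p = 1.67e-06). USP18 passed under neither hairpin (-0.18 ± 0.16 SE, adjusted p = 0.325, and 0.14 ± 0.15 SE, adjusted p = 0.469).

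Among the effectors and the PARP and TRIM genes, PARP9 and TRIM22 fell under both hairpins. PARP9 stood at 22.4, 23.1 and 21.1 CPM in sh43 libraries and 35.1, 37.4 and 37.2 CPM in sh45 libraries, against 54.1, 49.5 and 49.96 CPM in shCtrl libraries. TRIM22, which restricts several viruses, stood at 24.8, 22.1 and 18.9 CPM in sh43 libraries and 37.1, 40.03 and 35.4 CPM in sh45 libraries, against 64.2, 56.6 and 57.6 CPM in shCtrl libraries. Both were separate in the order sh43, sh45, shCtrl. PARP9 changed by -1.204 (SE 0.076, adjusted p = 1.45e-13) and -0.48 (SE 0.071, adjusted p = 2.47e-06), and TRIM22 by -1.43 (SE 0.086, adjusted p = 6.31e-14) and -0.67 (SE 0.081, adjusted p = 1.27e-07). PARP9 overlaps the gene of its partner DTX3L, which also fell under both hairpins (-0.86 and -0.27). PARP14 stood at 91.99, 99.5 and 92.7 CPM in sh43 libraries and 146, 144 and 138 CPM in sh45 libraries, against 176, 151 and 175 CPM in shCtrl libraries. It followed the same order (-0.82 ± 0.060 SE and -0.23 ± 0.059 SE).

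SAMD9 stood at 24.9, 27.1 and 23.4 CPM in sh43 libraries and 30.2, 28.7 and 24.2 CPM in sh45 libraries, against 47.4, 43.6 and 46.5 CPM in shCtrl libraries. SAMD9L stood at 18.7, 20.9 and 19.6 CPM in sh43 libraries and 18.4, 23.96 and 22.2 CPM in sh45 libraries, against 31.5, 24.4 and 30.2 CPM in shCtrl libraries. Both genes were below control under each hairpin (-0.86 and -0.73 for SAMD9, -0.54 and -0.42 for SAMD9L), and the hairpins did not differ past the threshold. CMPK2 stood at 1.08, 0.83 and 1.35 CPM in sh43 libraries and 4.38, 3.55 and 2.88 CPM in sh45 libraries, against 3.598, 3.99 and 4.12 CPM in shCtrl libraries. EPSTI1 stood at 0.793, 1.85 and 0.556 CPM in sh43 libraries and 2.62, 2.44 and 3.54 CPM in sh45 libraries, against 3.37, 4.79 and 1.85 CPM in shCtrl libraries. CMPK2 and EPSTI1 were low under sh43 (-1.86 ± 0.28 SE, adjusted p = 1.65e-06, and -1.58 ± 0.37 SE, adjusted p = 0.000502) and overlapped the controls under sh45, both from few reads. RSAD2 fell under sh43 (-1.19 ± 0.12 SE, adjusted p = 2e-09) and changed by -0.13 (SE 0.11, adjusted p = 0.348) under sh45.

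ISG20 stood at 3.46, 3.19 and 1.99 CPM in sh43 libraries and 7.85, 7.88 and 7.53 CPM in sh45 libraries, against 3.37, 4.497 and 3.77 CPM in shCtrl libraries. The sh45 libraries were separate above the others, with a change of 0.99 (SE 0.19, adjusted p = 8.04e-05), while sh43 did not pass (-0.42 ± 0.22 SE, adjusted p = 0.0928). SP110 averaged 17.2 ± 0.364 CPM in sh43 and 10.5 ± 0.935 CPM in sh45, against 13.1 ± 1.32 CPM in shCtrl (SD, n = 3 each). It rose under sh43 (0.39 ± 0.11 SE, adjusted p = 0.00302), fell under sh45 (-0.32 ± 0.12 SE, adjusted p = 0.0273) and differed between the hairpins by 0.71 (SE 0.11, adjusted p = 5.39e-06). The sh45 call of SP110 was lost without sh45 replicate 1 or 2 or shCtrl replicate 3 (adjusted p 0.0524, 0.112 and 0.157), and its reads can overlap those of SP140. EIF2AK2 did not pass under sh43 (0.012 ± 0.080 SE, adjusted p = 0.9) and fell under sh45 (-0.49 ± 0.083 SE, adjusted p = 2.01e-05), as IFIT3 did. BST2 and XAF1 fell under sh43 (-0.51 ± 0.050 SE and -0.81 ± 0.15 SE) and not under sh45 (0.032 ± 0.050 SE, adjusted p = 0.617, and 0.23 ± 0.14 SE, adjusted p = 0.174). TRIM21, an antibody receptor in the cytosol, passed under neither (-0.014 ± 0.10 SE, adjusted p = 0.911, and 0.001 ± 0.10 SE, adjusted p = 0.994).

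Promoter letters were set beside these changes as a description. The 24 genes with an ISRE core had median log2 changes of -0.488 under sh50, -0.040 under sh52, -0.750 under sh43 and -0.212 under sh45. The 11 with a promoter but no ISRE core had medians of -0.324, 0.037, -0.710 and -0.315 in the same order. IRF1 and SP110, the genes that rose under sh43, are among the 11. Both carry a GAS core, as do OAS1, IRF9 and IFI35, which fell under sh43.

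Upstream of the genes, ligand transcripts were nearly absent. Of 21 interferon genes, IFNE passed the count filter, at 2.696 ± 0.317 CPM in sh50, 3.25 ± 0.275 CPM in sh52 and 2.41 ± 0.82 CPM in USP13-experiment shCtrl libraries (SD, n = 3 each), and the others had at most 5 counts in any library. IFNE averaged 0.139 ± 0.144 CPM in sh43 and 0.795 ± 0.184 CPM in sh45, against 0.563 ± 0.212 CPM in shCtrl of the ZHX2 experiment (SD, n = 3 each). It fell under sh43 (-1.904 ± 0.71 SE, adjusted p = 0.0205), a call lost without sh43 replicate 2 or 3 or shCtrl replicate 1 (adjusted p 0.0629, 0.0919 and 0.089). IFNAR1, the receptor chain that all type I interferons share, stood at 62.7, 64.9 and 68.6 CPM in sh50 libraries and 61.4, 60.5 and 63.5 CPM in sh52 libraries, against 99.1, 85.01 and 80.9 CPM in shCtrl libraries. It fell under sh50 (-0.43 ± 0.074 SE, adjusted p = 0.000103) and under sh52 (-0.52 ± 0.074 SE, adjusted p = 2.92e-05), with no difference shown between them (0.084 ± 0.075 SE, adjusted p = 0.54, 95% interval -0.07 to 0.24). In the ZHX2 experiment IFNAR1 stood at 74.7, 66.2 and 70.9 CPM in sh43 libraries and 73.3, 68.6 and 66.9 CPM in sh45 libraries, against 90.2, 75.8 and 90.1 CPM in shCtrl libraries. It fell under both hairpins there too (-0.28 ± 0.070 SE, adjusted p = 0.00113, and -0.29 ± 0.070 SE, adjusted p = 0.000929). IFNAR2 changed by 0.088 (SE 0.097, adjusted p = 0.577) under sh50, 0.27 (SE 0.097, adjusted p = 0.068) under sh52, -0.30 (SE 0.085, adjusted p = 0.00256) under sh43 and -0.028 (SE 0.083, adjusted p = 0.798) under sh45.

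SOCS1, an inhibitor of JAK kinases, stood in the ZHX2 experiment at 11.03, 11.9 and 10.1 CPM in sh43 libraries and 4.64, 2.29 and 4.45 CPM in sh45 libraries, against 0.995, 1.596 and 1.17 CPM in shCtrl libraries. The groups did not overlap, with sh43 highest and shCtrl lowest. SOCS1 rose by 8.73-fold under sh43 (3.13 ± 0.24 SE, adjusted p = 8.37e-12) and 3.06-fold under sh45 (1.61 ± 0.28 SE, adjusted p = 2.16e-05), whereas it did not pass under sh50 or sh52 (-0.52 ± 0.31 SE, adjusted p = 0.262, and -0.23 ± 0.31 SE, adjusted p = 0.695).

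Other genes of the pathway were counted from lists, with the range over fits that left out a library. The hairpins of a target share their control libraries, so values under both are given side by side only. A count with no range was the same in every such fit. The shares of all genes that fell and rose, for reading these counts, were 11.3% and 10.2% under sh50, 6.57% and 5.45% under sh52, 35.2% and 33.5% under sh43, and 27.3% and 25.3% under sh45. Of 10 JAK-STAT signalling genes, 3 fell under sh50, 1 (0 to 1) fell under sh52, 6 fell and 3 (2 to 3) rose under sh43, and 6 (5 to 6) fell and 1 (1 to 2) rose under sh45. JAK1 fell under sh43 and sh45 (-0.26 and -0.31), as did STAT3 (-0.50 and -0.43) and the phosphatase PTPN6 (-1.02 and -0.35). SOCS3, another inhibitor, changed by -0.29 (SE 0.080, adjusted p = 0.00832) under sh50 and -0.25 (SE 0.080, adjusted p = 0.0419) under sh52, and the sh52 call was lost without sh50 replicate 1 or 2, sh52 replicate 1 or shCtrl replicate 2 or 3 (adjusted p 0.0579, 0.0517, 0.194, 0.141 and 0.12).

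Of 6 receptor genes, 3 (2 to 3) fell under sh50 and 3 (2 to 3) under sh52, while 2 fell and 2 rose under sh43, and 2 (1 to 2) fell and 2 (1 to 2) rose under sh45. The shares under sh43 and sh45, 33.3% in each direction, lay near those of all genes. IFNGR1, the interferon gamma receptor chain, changed by -0.36 and -0.51 under sh50 and sh52 and by 0.74 and 0.23 under sh43 and sh45. Its sh50 call was lost without sh50 replicate 2 or shCtrl replicate 3 (adjusted p 0.0716 and 0.0601) and its sh45 call without sh45 replicate 1 or shCtrl replicate 1 or 3 (adjusted p 0.108, 0.0855 and 0.0847). IL10RB, the receptor chain shared with interferon lambda, changed by -0.64 and -0.28 under sh50 and sh52. The sh52 call of IL10RB did not pass without sh52 replicate 2 or 3 or shCtrl replicate 1, 2 or 3 (adjusted p 0.106, 0.142, 0.134, 0.0627 and 0.0727).

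Of 12 genes of nucleic acid sensing upstream of interferon, 3 (1 to 3) fell under sh50, 1 (0 to 1) fell and 0 (0 to 1) rose under sh52, 5 (4 to 5) fell and 2 (1 to 3) rose under sh43, and 4 (4 to 5) fell and 3 (2 to 4) rose under sh45. The shares that fell, 41.7% under sh43 and 33.3% under sh45, were near those of all genes. STING1, the adaptor for cytosolic DNA, fell to 24.4 ± 0.986 CPM in sh43 and 50.8 ± 1.75 CPM in sh45, against 61.04 ± 0.677 CPM in shCtrl (SD, n = 3 each; -1.32 ± 0.069 SE and -0.27 ± 0.064 SE). MAVS, the adaptor of RIGI and IFIH1, also fell under sh43 and sh45 (-0.62 and -0.27), and so did TLR3, a receptor for double-stranded RNA (-0.52 and -1.63). TRIM25, a ligase that acts on RIGI, passed narrowly under sh50 (-0.16 ± 0.053 SE, adjusted p = 0.0299) and sh52 (-0.18 ± 0.053 SE, adjusted p = 0.0292), and fits without a library took these adjusted p values up to 0.12 (without shCtrl replicate 2) and 0.124 (without shCtrl replicate 2).

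The antigen presentation genes moved in both directions. Of 13, 6 (2 to 7) fell and 1 rose under sh50, 3 (1 to 3) rose under sh52, 7 (5 to 7) fell and 2 (1 to 3) rose under sh43, and 1 fell and 9 (8 to 10) rose under sh45. TAP2, a peptide transporter subunit, rose under sh43 and sh45 (0.99 and 0.50), and NLRC5, the activator of MHC class I genes, fell (-0.56 and -0.49). Classical MHC class I genes resemble each other, so their split of reads is an estimate. The proteasome subunit PSMB9 changed by 0.23 (SE 0.083, adjusted p = 0.0171) under sh43, a call lost without sh43 replicate 3 or shCtrl replicate 3 (adjusted p 0.0503 and 0.128), and by 0.43 (SE 0.082, adjusted p = 7.8e-05) under sh45.

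Further interferon-stimulated genes outside the 44 were counted from a list of 42. Under sh50, 27 (24 to 27) of the 37 tested fell and 1 rose, and under sh52 5 (3 to 5) fell and 3 (1 to 3) rose. In sh50 minus sh52, 22 of the 37 were lower (12 to 23 in fits without a library). Under sh43, 17 (17 to 18) of the 38 tested fell and 9 (8 to 10) rose, and under sh45 18 (15 to 18) fell and 7 (4 to 7) rose. As shares of the tested list, 73.0% fell under sh50 and 13.5% under sh52, against 11.3% and 6.57% of all genes, and 44.7% fell under sh43 and 47.4% under sh45, against 35.2% and 27.3%. The rises under sh43 and sh45 were 23.7% and 18.4% of the list, against 33.5% and 25.3% of all genes. In the USP13 experiment GBP3, SAMHD1 and SLFN5 fell under sh50 (-0.87, -0.63 and -0.68) and under sh52 (-0.51, -0.37 and -0.31), and LGALS3BP rose (0.27 and 0.26). In the ZHX2 experiment PLSCR1, TRIM5, TNFSF10, APOL1 and CNP fell under sh43 (-1.86, -1.61, -1.299, -1.07 and -0.77) and under sh45 (-0.53, -0.94, -0.39, -0.78 and -0.66). HELZ2 rose there (0.23 and 0.33). GBP4, an interferon-inducible GTPase, rose under sh43 (1.5 ± 0.41 SE, adjusted p = 0.00218) and sh45 (1.21 ± 0.42 SE, adjusted p = 0.0184), the sh45 call being lost without sh45 replicate 1 or shCtrl replicate 3 (adjusted p 0.243 and 0.0662).

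The responses to the targets were compared directly, each taken as the mean of its hairpins against its own controls. In this test over 14209 genes, 20 of the 44 had a higher log2 response to USP13 than to ZHX2 knockdown and 8 a lower one, where 22.7% of all genes were higher and 20.7% lower. The largest positive differences were in IFITM1 (1.09 ± 0.27 SE, adjusted p = 0.00135), IFIT1 (0.86 ± 0.089 SE, adjusted p = 8.41e-10), IRF7 (0.84 ± 0.15 SE, adjusted p = 3.21e-05) and TRIM22 (0.76 ± 0.098 SE, adjusted p = 9.37e-08), whose mean log2 change was lower after ZHX2 knockdown. On the other side stood IFI27 (-0.89 ± 0.21 SE, adjusted p = 0.000835), IRF1 (-0.87 ± 0.10 SE, adjusted p = 1.06e-08), USP18 (-0.50 ± 0.16 SE, adjusted p = 0.0122) and IFI6 (-0.40 ± 0.097 SE, adjusted p = 0.000952). For RSAD2 and DDX60 the difference did not pass (-0.10 ± 0.12 SE, adjusted p = 0.528, and 0.14 ± 0.11 SE, adjusted p = 0.29). Without USP13-experiment shCtrl replicate 2 the count of lower responses was 4, and without ZHX2-experiment shCtrl replicate 2 it was 5. The hairpins of each target differed from each other, as shown above, and the mean takes them together.

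The control libraries of the experiments themselves differed in the level of the 44 genes. On a common scale over all 18 libraries, 38 of the 44 had every USP13-experiment control above every ZHX2-experiment control, as did 30.5% of all genes tested. The median ratio was 1.97 for the 44 and 1.01 for all genes. ISG15 averaged 304.8 ± 22.4 CPM in the USP13-experiment controls and 63.7 ± 5.56 CPM in the ZHX2-experiment controls (SD, n = 3 each), IFIT1 137 ± 5.56 and 55.6 ± 4.89 CPM, and IFI27 30.7 ± 3.34 and 3.70 ± 0.38 CPM. BST2 had every USP13-experiment control below (408 ± 5.49 and 438 ± 33.6 CPM). OAS3, IRF9, ISG20, EIF2AK2 and TRIM21 overlapped. Experiment and control set cannot be told apart in this design, so the changes above are each relative to a different starting level.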

How the data were processed

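The deposited tables list every transcript with its estimated count and its TPM (transcripts scaled for length and depth), which the authors made with Salmon, per the file headers. Per the submitters' processing notes the build was hg19, and the tools included Salmon (version 0.11.3), STAR (2.5.2b) and cutadapt (1.12). No gene coordinates on another build are therefore given beyond the promoters. The kit in the labels' protocols does not mark strand. Estimated counts were whole within 1e-06 and were summed from 60422 transcripts to 27098 genes, with names from the RefSeq table for 59295 transcripts and from GENCODE for 715; 412 unnamed transcripts (at most 0.113% of a library's counts) were left out. TPM was used to compare levels between genes within a group, and no change between groups was tested on it.

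Genes passing edgeR's filterByExpr (13717 and 13605 in the USP13 and ZHX2 experiments) were tested with edgeR 4.0.16 (R 4.3.3): TMM factors, quasi-likelihood F test, 9 libraries a fit, Benjamini-Hochberg adjustment over all tested genes, threshold 0.05. The test was also run on simulated data with known changes. Alternatives were DESeq2 1.42.0, other scaling factors, no filter, fits on the compared groups alone, a replicate block and fits without each library. Replicates of each group differed by more than sampling noise (chi-square over degrees of freedom 2.33 to 6.68). Libraries of the same replicate number in the labels did not deviate together (correlations -0.104 to 0.057), so the numbers were not used as pairs.

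The members and all gene lists were chosen with earlier results of these data known. Genes were named with library values where both hairpins of a target called them the same way, or where they were among the 6 largest called changes of a hairpin or the 4 largest called differences between hairpins. Other members with values in the text, and the examples from the other lists, were chosen after their values were seen. Some genes of these lists are not reported here by name.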

Additional observations from a re-analysis of the deposited data

Results flagged for a closer look

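Hairpins of the same target differed from each other in a direct test. In the USP13 experiment 35 of the 44 genes were lower under sh50 than under sh52, where 5.48% of all genes were lower. In the ZHX2 experiment 31 were lower and 4 higher under sh43 than under sh45, where 34.2% of all genes were lower and 32.7% higher.

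In the ZHX2 experiment 4 of the 44 genes were called in opposite directions by the hairpins. So were 1270 of all 13605 genes tested, a similar share. The sh43 call of IFI27 and the sh45 call of SP110 were lost in some fits without a library. The log2 difference, sh43 minus sh45, was -5.21 for IFITM1, -1.56 for IFI6, -2.37 for IFI27 and 0.71 for SP110.

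The mean response to USP13 hairpins was higher than that to ZHX2 hairpins in 20 of the 44 genes (45.5%) and lower in 8 (18.2%). Over all genes tested, 22.7% were higher and 20.7% lower, so the share of lower responses was near that of all genes. In every alternative 15 of the 20 and 4 of the 8 passed. The experiments have separate control sets, and target, control set and experiment cannot be told apart.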

How the results depend on the processing

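No change that was called in the reported fit or in an alternative had opposite signs in them. Sign changes of genes called in neither were not counted. Counts of the 44 genes stayed within 1.5 times of the reported ones under DESeq2, RLE or upper-quartile factors, no filter, and fits on the compared groups alone. Without each library in turn, sh50 had 32 to 36 lower, sh52 0 to 2 higher and 1 to 5 lower, sh50 minus sh52 29 to 35 lower, sh43 35 to 36 lower, sh45 18 to 22 lower and 4 to 6 higher, and sh43 minus sh45 28 to 32 lower. The comparison of the targets had 16 to 20 higher and 4 to 9 lower. Of the called genes, 32 of 35 (sh50), 26 of 35 (sh50 minus sh52), 34 of 36 lower (sh43), 18 of 21 lower (sh45) and 27 of 31 lower (sh43 minus sh45) passed in every alternative, but only 1 of 4 lower and 0 of 1 higher under sh52. With the replicate number as a block, 33, 4, 33, 36, 21 and 31 of the 44 were lower in the same 6 comparisons (35, 4, 35, 36, 21 and 31 without it).

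Over all genes, those higher under sh50 numbered 903 without shCtrl replicate 1 and 913 without replicate 2, against 1393. Under sh52, 413 and 409 were higher without those libraries, against 747, and 582 lower without shCtrl replicate 2, against 901. In sh50 minus sh52, 376 and 277 were higher and 462 and 409 lower without sh50 replicates 1 and 2, against 649 and 752. With promoters cut to the 250 bases before the start, 62.9% of the 35 genes and 3.71% of all genes held an ISRE core. The cause of these shifts was not tested. Genes with few reads, such as IFITM1 under sh43, EPSTI1, CMPK2 and MX2, are the least precise, and 3 libraries a group limit every test.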
